A study of Arabidopsis thaliana with 66 samples.

Results

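PORB and RCA are 2 nuclear genes of the green plastid, and their transcripts were followed here through the Arabidopsis flower. They were taken by name and locus as the genes paired with a probe set of their own, PORB at AT4G27440 on chromosome 4 and RCA at AT2G39730 on chromosome 2. Each had 1 such probe set among the 22810 on the array, and they are 2 of the 13355 genes with one. Between flower stages 12 and 15 PORB fell 7.04-fold in sepals and 3.35-fold in petals, while RCA rose 4.23-fold in stamens and moved by less than 2-fold in the other 3 organs.

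PORB encodes protochlorophyllide oxidoreductase B, an enzyme of the chloroplast that reduces protochlorophyllide to chlorophyllide and needs light to do so. This is a late step of chlorophyll synthesis, which starts from glutamate, runs through the porphyrins shared with haem and ends with the addition of a phytol tail. RCA encodes Rubisco activase, an ATP-driven protein that removes inhibitory sugar phosphates from Rubisco, the enzyme that fixes carbon dioxide. Sepals, carpels and pedicels are green organs of the flower, petals lose their green colour before the bud opens, and pollen carries no chloroplasts.

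The material came from 66 one-colour arrays hybridised with biotin-labelled total RNA, 3 for each of 22 groups. Wild-type plants were Col-0, grown on soil in continuous light at 23 °C and 65% relative humidity. They gave whole flowers at stages 9, 10/11, 12 and 15, the 4 floral organs (sepals, petals, stamens, carpels) dissected at both of the last 2 stages, and pedicels (flower stalks) at stage 15. Mature pollen came from Col-0 in continuous light at 23 °C, and a further set of Col-0 flowers of no stated stage came from long days at 20 °C; no humidity is given for either. Flowers of 7 mutants in the Col-0 background, all in continuous light at 23 °C and 65% relative humidity, were taken at an age equivalent to stage 12. The labels describe clv3-7 as having an enlarged meristem with extra organs and carpels, lfy-12 as having leaf-like structures in place of flowers, and ap1-15 as lacking sepals, with secondary flowers where petals would be. They describe ap2-6 as lacking sepals and petals, with carpel-like tissue on sepals, ap3-6 as lacking petals and stamens, ag-12 as indeterminate flowers with sepals and petals where stamens and carpels would be, and ufo-1 as having filaments in the petal and stamen positions. All mutant comparisons share the same 3 wild-type stage 12 arrays.

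Values are MAS5 signals, a linear measure of brightness per probe set that the authors scaled so that the trimmed mean of each array was 100.01 to 100.02. Signals ran up to 20032.9 over all arrays, and replicate arrays correlated at 0.959 to 0.994. Tests used log2 of the signal plus 11.3, which understates the change of dim genes, in a limma fit over all arrays. A probe set was called changed at an adjusted p below 0.05 with at least a 2-fold difference. Both genes passed the filter on dim probe sets, for which the signal had to exceed 22.6 on all arrays of some group. The labels do not say whether the 3 samples of a group came from separate plantings, so p-values measure only the spread between these samples. The fit shares that spread over all groups, so an SE does not show how far the arrays of 1 group varied. In whole organs, fewer green cells and less transcript per green cell cannot be told apart. Other transcripts that might bind these probe sets, the related genes PORA and PORC, and the protein forms of RCA were not analysed here.

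Organ identity was read from marker lists. The summed signal of 4 carpel and ovule markers was 1008 to 1108 in stage 12 carpels and 931 to 1011 in stage 15 carpels. At stage 12 it was 53.4 to 62.3 in sepals, 36.4 to 51.2 in petals and 50.2 to 81.9 in stamens. The summed signal of 5 pollen markers was 20627 to 23190 in mature pollen, 4516 to 4790 in stage 12 stamens and 3711 to 3986 in stage 15 stamens, against 27.5 to 36.2 in stage 12 carpels. The pollen sum was 120 to 157 in stage 12 sepals and 163 to 173 in stage 15 sepals. In petals it was 202 to 261 at stage 12 and 151 to 162 at stage 15. The members did not move together between stages. AtVEX1 went from 124 to 4.86 in petals and 1961 to 34.8 in stamens, PLIM2a from 78.7 to 114 and 1551 to 2793. In stamens MGH3 (568 to 118) and ANX1 (274 to 161) also fell, and ANX2 (335 to 709) rose. In petals ANX2 went from 12.2 to 22.8. MGH3 and ANX1 lay there below 22.6, the level used to filter dim probe sets. Of the petal and stamen identity markers 2 had a probe set of their own, BPEp and RBE. Their summed signal was 934 to 1078 over both petal groups and 697 to 966 over both stamen groups. It was 115 to 186 over both sepal groups and 32.7 to 38.02 in pedicels. BPEp made up almost all of the petal and stamen sums. Its means at stages 12 and 15 were 964 and 1027 in petals and 951 and 703 in stamens. RBE means were 5.01 and 9.14 in petals and 7.75 and 9.53 in stamens. All RBE signals in petals and stamens were below 22.6, so RBE could not mark these organs. Its means were 26.3 in stage 12 carpels and 33.01 in pollen. Within this list only BPEp set petals and stamens apart. No marker list for sepals or pedicels was used, so those labels were not checked.

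PORB was brightest in stage 15 pedicels and carpels and dimmest in pollen and stage 15 sepals. Stage 15 pedicels gave signals of 1262, 1382 and 1570.3, a mean of 1405 ± 155 (SD, n = 3), and stage 15 carpels gave 914.3, 915 and 919.8, a mean of 916 ± 3.07 (SD, n = 3). Neither group overlapped the next one in the order. Below them came ag-12 flowers at 655 ± 30.3, ap2-6 flowers at 649.8 ± 87 and long-day flowers at 632 ± 20.8 (SD, n = 3 each), whose arrays overlapped. Then followed, each group overlapping its neighbour, stage 9 flowers at 585 ± 26.8, ufo-1 flowers at 561 ± 30.1, stage 10/11 flowers at 560.02 ± 34.2, stage 12 petals at 533 ± 17.4 and stage 12 carpels at 520.4 ± 21.6 (SD, n = 3 each). The run continued with stage 12 flowers at 509 ± 52.7, ap3-6 flowers at 491 ± 6.29, clv3-7 flowers at 469 ± 26.9 and lfy-12 flowers at 447 ± 13.7 (SD, n = 3 each). The 9 groups from stage 9 flowers to lfy-12 flowers therefore could not be put in order against their neighbours.

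Lower on the PORB scale were stage 15 flowers at 393 ± 25.2 and stage 12 sepals at 371 ± 31.3, which overlapped, and ap1-15 flowers at 293 ± 9.96 (SD, n = 3 each). The dimmest groups were stage 15 petals at 151 ± 12.1, stage 12 stamens at 101 ± 8.05, stage 15 stamens at 74.4 ± 10.8, stage 15 sepals at 42.9 ± 2.74 and pollen at 34.7 ± 13.7 (SD, n = 3 each). Of these 5, stage 15 sepals and pollen overlapped and the others stood apart from their neighbours. The highest mean was 40.4 times the lowest. Over the 21 pairs of neighbours 12 overlapped, and the median coefficient of variation within groups was 5.92%.

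RCA was bright nearly everywhere. In 20 of the 22 groups it lay at or above the 98.7th percentile of all probe sets on the array. The exceptions were stage 12 stamens, at the 92.3rd percentile, and pollen, at the 56.7th. Signals in pedicels were 3865, 3746 and 3921, a mean of 3844 ± 89.2 (SD, n = 3), above every array of every other group. Stage 12 sepals at 3460.1 ± 308, stage 15 sepals at 2933 ± 547 and stage 10/11 flowers at 2860.03 ± 187 followed and overlapped in turn (SD, n = 3 each).

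A long overlapping run came next on the RCA scale. It held ag-12 at 2489 ± 230.02, stage 12 flowers at 2449 ± 191, ufo-1 at 2427 ± 210.4, lfy-12 at 2390.1 ± 35.8, ap3-6 at 2360.1 ± 175 and stage 15 flowers at 2272 ± 93.1 (SD, n = 3 each). It went on through stage 15 carpels at 2242 ± 131, ap2-6 at 2180.5 ± 117, clv3-7 at 2138 ± 113, long-day flowers at 1980.2 ± 26.9, stage 9 flowers at 1969 ± 172, stage 15 petals at 1963 ± 373 and ap1-15 at 1959 ± 30.3 (SD, n = 3 each). Next came stage 15 stamens at 1780.2 ± 11.1, which did not overlap ap1-15 but lay within the range of the stage 15 petal arrays. Standing apart below them were stage 12 petals at 1581 ± 68.8, stage 12 carpels at 1279.9 ± 28.6 and stage 12 stamens at 412 ± 14.5; pollen was lowest at 31.7 ± 9.65 (SD, n = 3 each). The range of means was 121-fold, with pollen at its lower end. Among 21 pairs of neighbours 15 overlapped, and the median coefficient of variation was 5.59%.

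**Figure D1:**
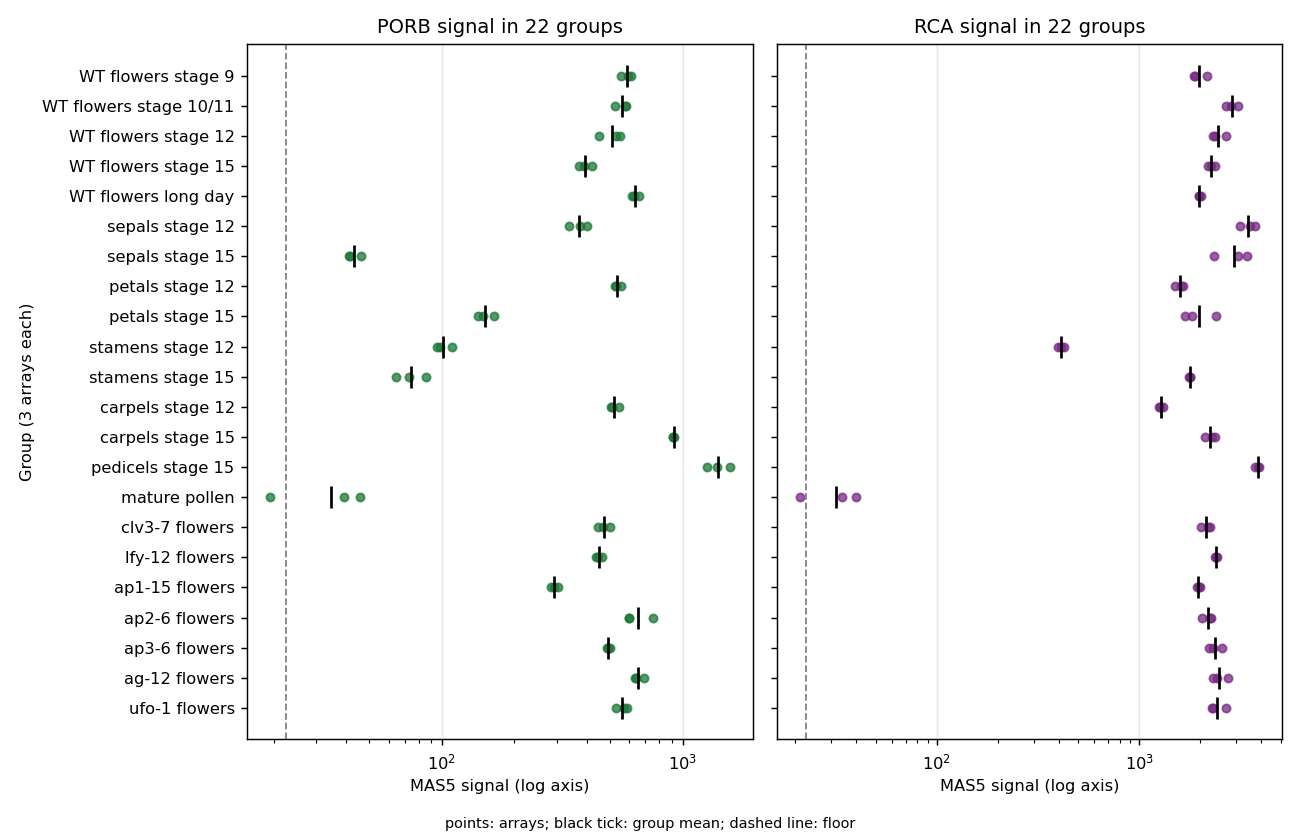
MAS5 signal of PORB (left) and RCA (right) on a log axis for each of the 3 arrays in 22 groups; points are arrays, black ticks are group means and the dashed line is the floor of 22.6. PORB drops to 42.9 in stage 15 sepals, where RCA stays at 2933, and both genes are near the floor in pollen.

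The first question was how each gene changed as organs went from the closed bud at stage 12 to the open flower at stage 15. In sepals PORB gave 338, 375 and 399.9 at stage 12 and 41.3, 41.5 and 46.1 at stage 15. All 3 older samples lay far below all 3 younger ones. The log2 change was -2.81 ± 0.11 (SE), a 7.04-fold fall (limma adjusted p = 2.21e-30), in a comparison in which 16.8% of tested probe sets were called. RCA in the same sepals gave 3732, 3523 and 3125 at stage 12 and 2333, 3062 and 3404 at stage 15. These groups overlapped, and the log2 difference of -0.25 ± 0.11 (SE; limma adjusted p = 0.0347) was short of 2-fold and not called.

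Petals lost PORB as well. The signals were 521, 526 and 553 at stage 12 and 142, 148 and 165 at stage 15, with no overlap. The log2 change of -1.74 ± 0.11 (SE) was a 3.35-fold fall (limma adjusted p = 2.24e-21), where 25.3% of tested probe sets were called. RCA gave 1506, 1598 and 1640.3 in young petals and 1818, 2387 and 1683 in older ones. Every older array was above every younger one, but the log2 difference was 0.29 ± 0.11 (SE; limma adjusted p = 0.0115) and was not called.

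In stamens RCA was the gene that changed. Its signals were 397, 426 and 412 at stage 12 and 1788, 1767 and 1786 at stage 15, a log2 rise of 2.08 ± 0.11 (SE), or 4.23-fold (limma adjusted p = 2.57e-25). Among all tested probe sets 24% were called in this comparison. PORB stood at 110.3, 98.2 and 95 in young stamens and at 64.5, 72.9 and 85.9 in older ones. Those arrays did not overlap, but the log2 difference of -0.40 ± 0.11 (SE; limma adjusted p = 1.10e-03) was under 2-fold. Stamens are also where anther content shifted: the summed signal of 4 anther and tapetum markers was 864 to 895 at stage 12 and 8.37 to 28.2 at stage 15, and its part in the RCA rise was not tested.

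Carpels were the one organ with both genes higher at stage 15. PORB gave 545, 505 and 511 at stage 12 against 914.3, 915 and 919.8 at stage 15, a log2 difference of 0.80 ± 0.11 (SE; limma adjusted p = 1.45e-08). RCA gave 1272, 1312 and 1256 against 2098, 2274 and 2353, also a log2 difference of 0.80 ± 0.11 (SE; limma adjusted p = 6.90e-09). Neither group of arrays overlapped the other for either gene. These differences, 1.75-fold and 1.74-fold, were below the 2-fold limit, so neither was called, in a comparison that called 4.54% of probe sets. The summed pollen markers of carpels were 27.5 to 36.2 at stage 12 and 172 to 195 at stage 15, and their part in these differences was not tested.

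**Figure D2:**
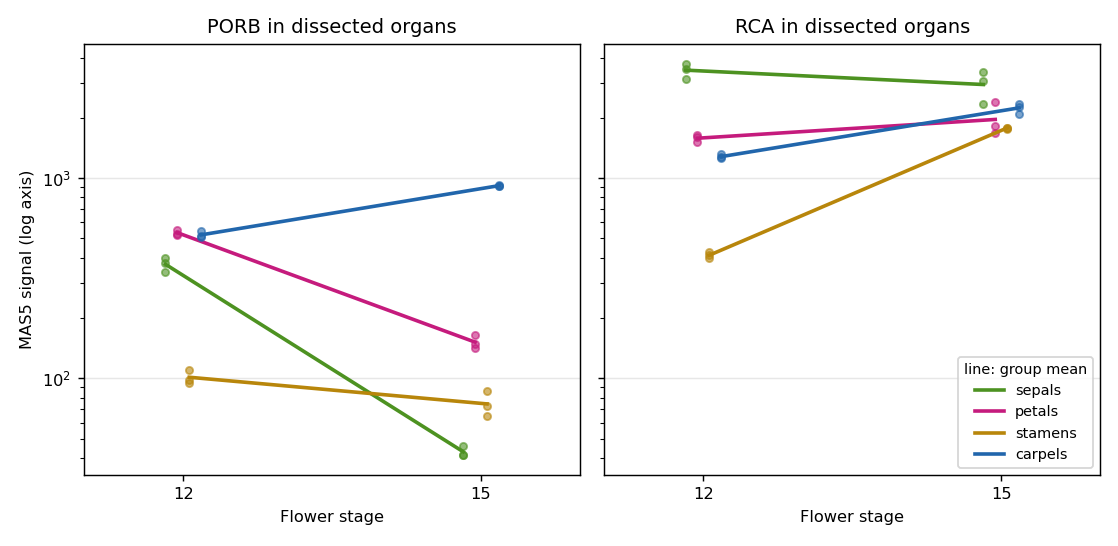
MAS5 signal (log axis) of PORB (left) and RCA (right) at flower stages 12 and 15 in 4 dissected organs; points are arrays and lines join group means. PORB falls in sepals and petals and RCA rises in stamens; the carpel arrays of both genes lie higher at stage 15 by 1.75-fold and 1.74-fold.

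The difference between 2 organs in their stage change was then tested directly. For PORB all 6 pairs of organs were called. The log2 change in sepals was below that of petals by -1.07, of stamens by -2.42 and of carpels by -3.62 (SE 0.15 each; limma adjusted p = 2.87e-08, 1.09e-20 and 4.27e-28). The petal change was below that of stamens by -1.35 and of carpels by -2.55, and the stamen change was below that of carpels by -1.20 (SE 0.15 each; limma adjusted p = 3.87e-11, 1.47e-21 and 1.06e-09). The sepal and petal changes in PORB differed by less than 2-fold under quantile normalization, at -0.79, and with a pseudocount equal to the floor, at -0.91, and were then not called. The share of probe sets called in these contrasts was 17.8% for sepals against petals, 27.9% for sepals against stamens, 19.1% for sepals against carpels, 23.5% for petals against stamens, 25.7% for petals against carpels and 23.6% for stamens against carpels.

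For RCA 4 of the 6 pairs were called, 3 of them with stamens. The sepal change lay below the stamen change by -2.33 and the petal change by -1.79, and the stamen change exceeded the carpel change by 1.28 (SE 0.15 each; limma adjusted p = 1.34e-20, 9.37e-16 and 6.74e-11). The sepal change was also below that of carpels by -1.05 ± 0.15 (SE; limma adjusted p = 1.91e-08). That last call was lost without the first stage 12 sepal array (-0.997), without the first stage 15 sepal array (-0.90) and under quantile normalization (-0.91). Sepals against petals, at -0.55, and petals against carpels, at -0.51, were not called.

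The ratio of RCA to PORB on the same array does not depend on how the array was scaled, apart from the added 11.3. It was computed after the values of both genes had been seen. On the log2 scale it was 3.18 ± 0.25 in stage 12 sepals and 5.75 ± 0.23 in stage 15 sepals (SD, n = 3 each). In petals it was 1.55 ± 0.04 and 3.59 ± 0.32, and in stamens 1.91 ± 0.14 and 4.39 ± 0.18 (SD, n = 3 each). In carpels it was 1.28 ± 0.08 at both stages (SD, n = 3 each), with a difference of -0.0018.

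So the ratio was 5.91-fold higher at stage 15 in sepals, 4.11-fold in petals and 5.57-fold in stamens, with every older array above every younger one. The two-sided exact permutation test gave p = 0.1 for each of these 3 organs, which is the smallest that 3 arrays against 3 allow, and p = 1 for carpels; adjusted over the 4 organs the first 3 values were 0.133. In sepals and petals the higher ratio went mainly with less PORB, in stamens mainly with more RCA. The other gene also differed, with RCA at -0.25 in sepals and 0.29 in petals and PORB at -0.40 in stamens on the log2 scale. Pedicels, at 1.45 ± 0.15 (SD, n = 3), were close to carpels.

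Organs of one stage were compared next. At stage 12 stamens were low in both genes. PORB in them was 3.40-fold below sepals, 4.85-fold below petals and 4.73-fold below carpels, and RCA was 8.18-fold, 3.76-fold and 3.05-fold below (limma adjusted p at most 8.86e-22 for PORB and 1.18e-20 for RCA). These contrasts called 32.7%, 30.1% and 39.9% of probe sets in turn. Sepals carried more RCA than petals, 2.18-fold, and than carpels, 2.68-fold (limma adjusted p = 3.89e-14 and 3.19e-18), in contrasts that called 19.9% and 28% of probe sets. PORB was not called in either of those, with log2 differences of -0.51 and -0.48. Petals and carpels differed in neither gene by the call rule, at 0.04 for PORB, whose arrays overlapped and whose sign depended on the scaling, and 0.30 for RCA, where 14.9% of probe sets were called.

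At stage 15 carpels and pedicels held the most PORB. PORB in carpels was 17.1-fold above sepals, 5.71-fold above petals and 10.9-fold above stamens (limma adjusted p at most 1.14e-28), in contrasts that called 37.2%, 33.6% and 38.8% of probe sets. Petals kept 2.998-fold more PORB than sepals (limma adjusted p = 2.10e-19; 17.6% of probe sets called). Sepals against stamens, at -0.65, and petals against stamens, at 0.93, were not called for PORB; they called 23.7% and 11% of probe sets. For RCA none of the 6 pairs among sepals, petals, stamens and carpels was called, and the widest was 0.70 on the log2 scale between sepals and stamens (limma adjusted p = 4.63e-08), which reached 1.03 and was called under quantile normalization.

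Pedicels at stage 15 exceeded sepals in PORB by 26.02-fold, petals by 8.68-fold and stamens by 16.5-fold (limma adjusted p at most 4.19e-33). The contrasts with pedicels called 33.5% of probe sets for sepals, 31.2% for petals and 35.4% for stamens, and 18.4%, 17.6% and 20.2% as lower than in pedicels. Against carpels the PORB difference of 1.52-fold was not called, where 15.4% of probe sets were called and 7% were lower in carpels. RCA in pedicels was 2.15-fold above stamens (limma adjusted p = 3.48e-14). It was 1.33-fold above sepals, 1.98-fold above petals and 1.71-fold above carpels, none of them called; the petal value reached 2-fold when the second pedicel array or the second petal array was left out (-1.0004 and -1.13 on the log2 scale).

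**Figure D3:**
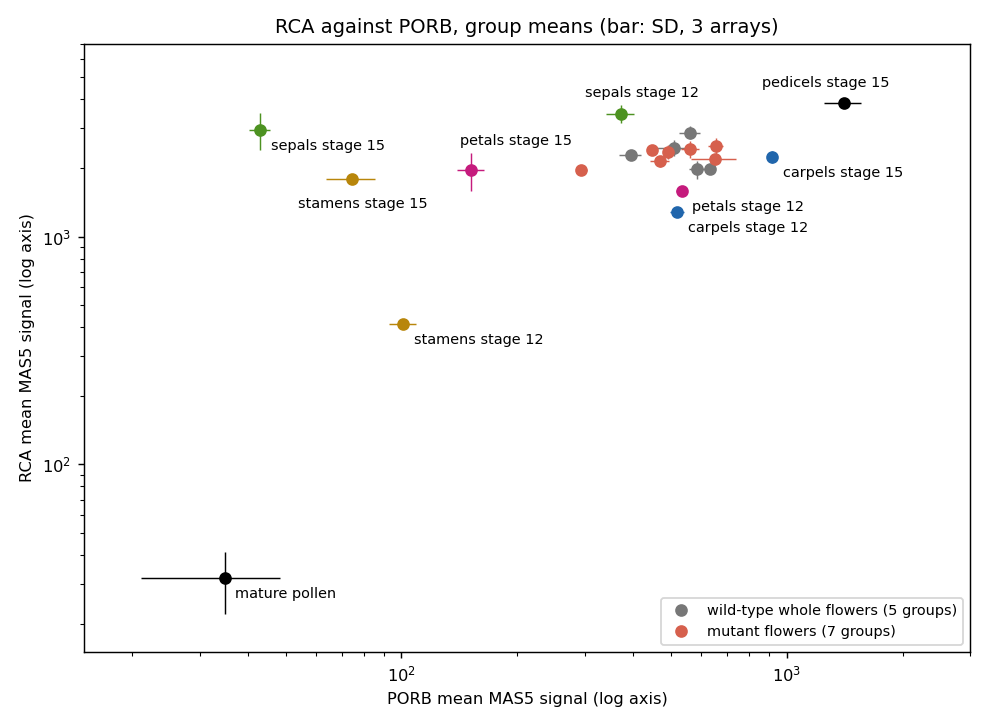
Mean MAS5 signal of RCA against that of PORB on log axes, 1 point per group of 3 arrays, with bars of 1 SD. Stage 15 sepals, stamens and petals lie far to the left at RCA levels of 2933, 1780.2 and 1963, pedicels are at the upper right, and pollen is at the lower left.

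Genes of the same pathways were taken from lists of chlorophyll synthesis, chlorophyll breakdown, the Rubisco and carbon fixation cycle, and photosystem and light-harvesting proteins. Only genes with a probe set of their own could be read. These were 11 of 30 for chlorophyll synthesis, PORB among them, and 9 of 34 for carbon fixation, RCA among them, with rbcL matched by its symbol and the others by locus. The lists therefore cover these pathways in part, and the light-harvesting list holds 6 of 37 genes.

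Chlorophyll synthesis genes were lower at stage 15 in sepals and petals, as PORB was. In sepals 7 of the 10 were lower at stage 15 and 0 higher, where 9.91% of all tested probe sets were called lower and 6.94% higher. The list's median log2 change was -1.47, against -0.03 over all tested probe sets. CHLM, the methyltransferase acting on magnesium protoporphyrin, fell from 741 ± 47.2 to 123 ± 12.5 (SD, n = 3 each), a log2 change of -2.49 (limma adjusted p = 3.84e-38). CHLI2, a subunit of the chelatase that inserts magnesium, changed by -2.21 and LIL3:1, a light-harvesting-like protein, by -1.83. AT1G74470, the geranylgeranyl reductase that makes the phytol tail, changed by -1.70, HEME2 and HEME1, both uroporphyrinogen decarboxylases, by -1.50 and -1.43, and GSA1, which makes aminolevulinate, by -1.16. HEMB1 at -0.91, LIL3:2 at -0.91 and HEMA2 at -0.28 were not called. PORB, at -2.81, lay below all 10.

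In petals 6 of the 10 were called lower and 0 higher, where 13.7% of all tested probe sets were called lower and 11.6% higher. The median was -1.08 against -0.12 over all tested probe sets. AT1G74470 changed by -1.76, close to PORB at -1.74, and GSA1 by -1.31, CHLM by -1.26, CHLI2 by -1.26, LIL3:2 by -1.13 and HEME2 by -1.03. In stamens none of the 10 was called, with a median of 0.13, and the calls over all probe sets were 12% higher and 12% lower. In carpels none was called either, with a median of 0.44, where 3.33% were called higher and 1.21% lower; limma's test gave CHLM in carpels 0.44 with an adjusted p of 2.05e-07, short of 2-fold.

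In sepals 7 of the 8 other carbon fixation genes were called lower at stage 15, where 9.91% of all tested probe sets were, with a median of -1.51, while RCA was at -0.25. Cpn60beta2, a subunit of the chaperonin that folds Rubisco, changed by -2.58, SBPASE, the sedoheptulose bisphosphatase of the Calvin cycle, by -1.12 and PRK, the phosphoribulokinase that makes Rubisco's substrate, by -1.41. AT5G28500, AT3G48420, AT3G47650 and AT1G56190 changed by -2.30, -1.80, -1.59 and -1.43. The gene that was not called, rbcL, encodes the large subunit of Rubisco in the plastid genome and stood at 463 and 512 (log2 difference 0.14).

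In petals 4 of the 8 were called lower, beside 13.7% of all tested probe sets. These were Cpn60beta2 at -3.26, AT3G47650 at -2.16, AT5G28500 at -1.74 and AT1G56190 at -1.28, with a median of -1.05 beside 0.29 for RCA. SBPASE at 0.03, AT3G48420 at -0.46, rbcL at -0.73 and PRK at -0.82 were not called. In stamens, where 12% of tested probe sets were called higher and 12% lower, 3 of the 8 rose along with RCA, SBPASE by 1.60, rbcL by 1.31 and PRK by 1.15, and Cpn60beta2 changed by -1.59; the list's median was 0.80 and RCA, at 2.08, lay above all 8. In carpels, where 3.33% were called higher, PRK rose by 1.04, the other 7 were not called, and the median of 0.74 was beside 0.80 for RCA.

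Photosystem and light-harvesting genes gave 4 of 6 lower in sepals (LHCB4.2 at -1.96, PSAN at -1.41, PSBY at -1.36 and LHCB4.1 at -1.03), 0 of 6 called in petals, 2 of 6 higher in stamens (PSAN at 1.99 and PSAE-1 at 1.28) and 1 of 6 higher in carpels (LHCB4.2 at 1.13). The shares of all tested probe sets were 9.91% lower in sepals, 13.7% lower and 11.6% higher in petals, 12% higher in stamens and 3.33% higher in carpels. Their medians were -1.19, -0.21, 0.98 and 0.80 in the 4 organs. Chlorophyll breakdown was read from 2 genes. NOL, a chlorophyll b reductase, rose in petals from 72.6 to 234, a log2 change of 1.55, and was at -0.12 in sepals. AT1G44000 was called in no organ, at -0.96 in sepals (limma adjusted p = 2.65e-17), -0.50 in petals, -0.40 in stamens and 0.27 in carpels.

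Senescence genes were read from 3 of 10 listed. Of all tested probe sets 6.94% were called higher in sepals, 11.6% in petals, 12% in stamens and 3.33% in carpels. SAG29, a sucrose transporter of ageing tissue, rose in all 4 organs, by 3.43 in sepals, 4.44 in petals, 2.65 in stamens and 1.78 in carpels on the log2 scale. WRKY6, a transcription factor active in ageing leaves, rose in sepals by 2.60, in petals by 3.25 and in stamens by 1.69 and was at 0.96 in carpels. Its signals in stage 12 petals, and in carpels at either stage, were all below the floor of 22.6. WRKY53, another of that kind, rose in sepals by 1.55 and in no other organ by the call rule, with all petal and stamen signals below that floor. Of 2 readable light and chloroplast regulators, HYH and EIN3, neither was called in any of the 4 organs. EIN3 was at 0.66 in sepals, 0.78 in petals and 0.75 in stamens (limma adjusted p at most 5.95e-09), short of 2-fold, and at 0.006 in carpels. HYH was at -0.0006 in sepals, 0.43 in petals, 0.58 in stamens and -0.03 in carpels. All HYH signals in stage 12 petals, and in stamens and carpels at either stage, were below the floor of 22.6.

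**Figure D4:**
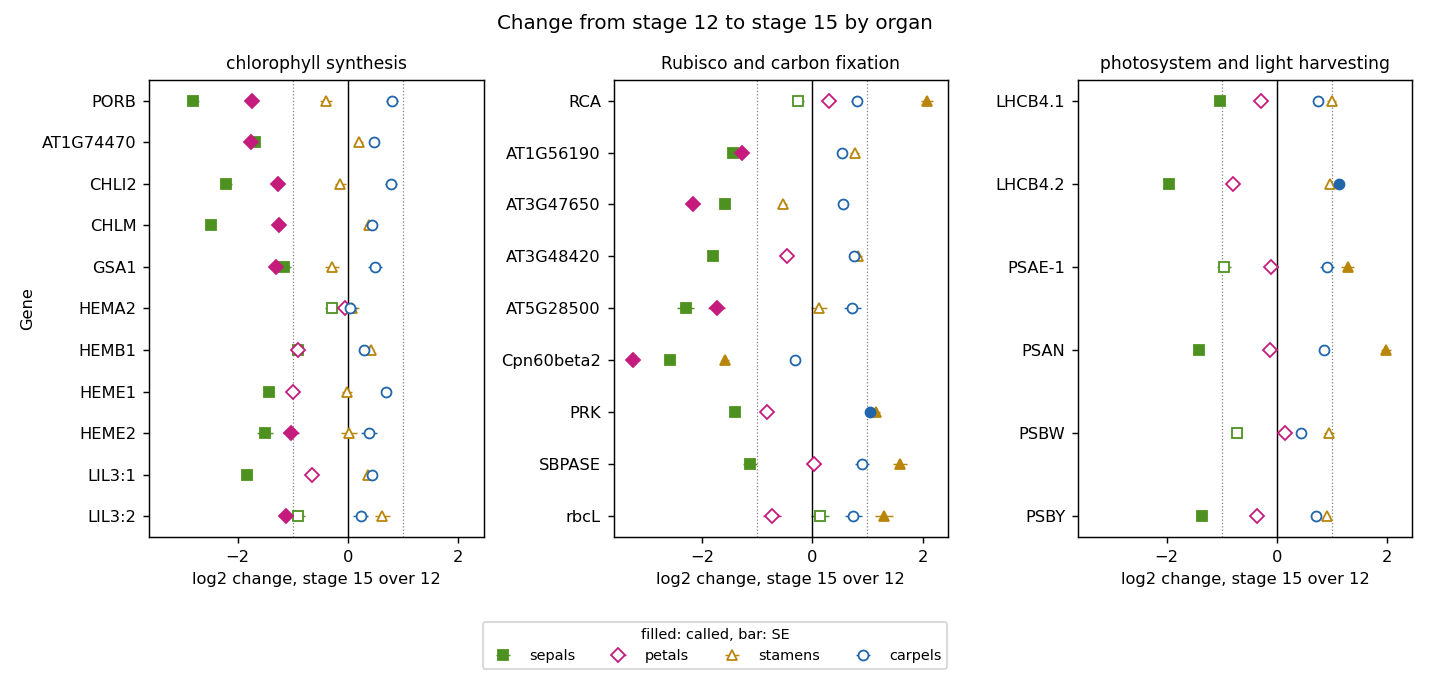
Log2 change from stage 12 to stage 15 (x axis, bars are SE) in sepals, petals, stamens and carpels for PORB, RCA and the listed genes of 3 pathways; filled symbols were called changed and dotted lines mark 2-fold. PORB is the lowest chlorophyll synthesis gene in sepals at -2.81, and RCA is at -0.25 in sepals, where 7 of 8 carbon fixation genes are called lower.

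In whole flowers neither gene was called from stage to stage. PORB was 555, 607 and 594 at stage 9, 577, 521 and 583 at stage 10/11, 550.5, 449 and 526 at stage 12 and 419.997, 369.9 and 389.99 at stage 15. Consecutive groups overlapped up to stage 12, and the stage 15 arrays lay below all of stage 12. The log2 differences were -0.06, -0.14 and -0.36 ± 0.11 (SE; limma adjusted p = 0.725, 0.341 and 3.92e-03), none called. These steps called 3.15%, 6.27% and 12.2% of probe sets. RCA was 2167, 1888 and 1853 at stage 9 and 3057, 2839 and 2684 at stage 10/11, without overlap and with a log2 difference of 0.54 ± 0.11 (SE; limma adjusted p = 4.88e-05), under 2-fold. From there it was at -0.22 to stage 12 and -0.11 to stage 15, also not called, and the sign of the last value depended on the scaling. None of the 10 other chlorophyll synthesis genes was called in any of the 3 steps; among carbon fixation genes 1 was, rbcL, which fell by 1.18 on the log2 scale between stages 10/11 and 12.

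Mutant flowers kept both genes within 2-fold of wild-type stage 12 flowers. The summed anther and tapetum markers were 968 to 1025 in those wild-type flowers and 3862 to 3998 at stage 10/11. They were 3004 to 3150 in ap1-15, 1910 to 1953 in ap2-6 and 1644 to 1862 in clv3-7. In lfy-12, ap3-6, ag-12 and ufo-1 the sums were below the wild type, but in lfy-12 and ufo-1 not every member was lower. In lfy-12 ATA27 was 126 against 929 in the wild type, and AT5G07230 was 134 against 1.62. AMS (43.4 against 39.9) and SHT (39.4 against 34.9) overlapped the wild type there. In ufo-1 ATA27 (732) and AMS (25.9) were lower and SHT (76.4) was higher. AT5G07230 was below the floor for dim probe sets in the wild type and, at 16.1, in ufo-1. Whether mutant and wild-type flowers differed in stage, and its part in these differences, was not tested. The clearest shift was PORB in ap1-15, whose labels report no sepals and secondary flowers. Its signals were 291, 304 and 284 against 550.5, 449 and 526 in the wild type. All ap1-15 arrays were lower, by -0.77 ± 0.11 on the log2 scale (SE; limma adjusted p = 4.02e-08), or 1.70-fold, and not called. The same flowers gave RCA signals of 1928, 1988 and 1960.3 against 2309.9, 2667 and 2371, a difference of -0.32 ± 0.11 (SE; limma adjusted p = 0.0106).

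PORB was at 599, 750.2 and 600.2 in ap2-6 and at 636, 689.6 and 638 in ag-12, every array above the wild type. The log2 differences were 0.34 ± 0.11 and 0.36 ± 0.11 (SE; limma adjusted p = 7.64e-03 and 6.70e-03), again not called. In clv3-7, lfy-12, ap3-6 and ufo-1 PORB differed by -0.11, -0.18, -0.04 and 0.14, with arrays that overlapped the wild type; in ap3-6 the sign turned without the first wild-type array. RCA differed by -0.19 in clv3-7 and -0.17 in ap2-6 and by at most 0.05 in size in lfy-12, ap3-6, ag-12 and ufo-1. The sign of these last 4 turned when a single array was left out, and that of ag-12 also under both other scalings. The 95% intervals of all 14 differences lay within 2-fold, the widest reaching -0.98 for PORB in ap1-15. The share of probe sets called was 0.697% for clv3-7 and 9.8% for lfy-12. It was 5.58% for ap1-15, 6.43% for ap2-6, 7.31% for ap3-6, 7.08% for ag-12 and 5.08% for ufo-1.

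No chlorophyll synthesis gene was called in any mutant, where 0.697% (clv3-7) to 9.8% (lfy-12) of all tested probe sets were called. Among carbon fixation genes 2 calls were made, in ap3-6 and ufo-1, which called 7.31% and 5.08% of all tested probe sets. With so few genes read, these counts are not a result about the pathways. AT5G28500 was 65.8 ± 11.4 in ap3-6 against 326 ± 21.4 in the wild type (SD, n = 3 each), a log2 change of -2.14 (limma adjusted p = 2.35e-18), and rbcL was higher in ufo-1 at 511 ± 33.01 against 207 ± 23.8 (SD, n = 3 each), a change of 1.26.

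**Figure D5:**
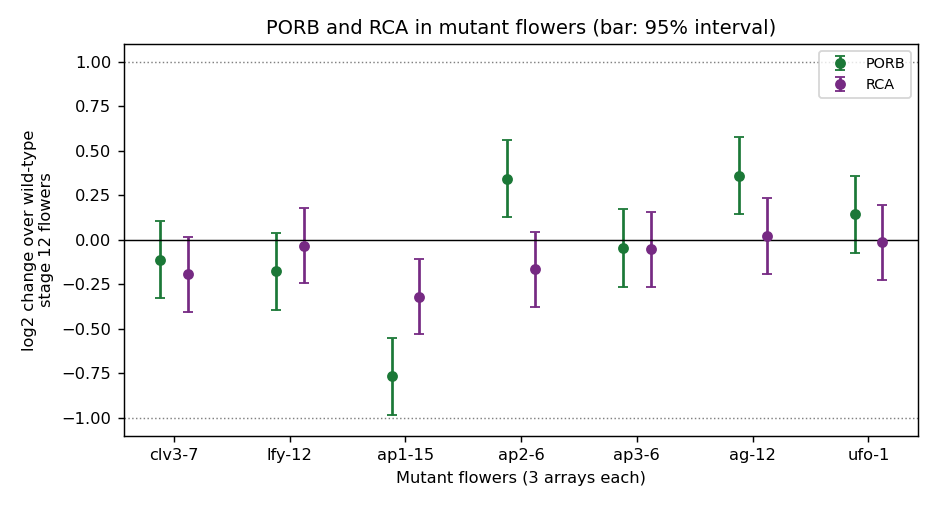
Log2 difference of PORB and RCA between flowers of 7 mutants and wild-type stage 12 flowers, with 95% intervals from the limma fit; dotted lines mark 2-fold. PORB in ap1-15 is lowest at -0.77 and no interval crosses 2-fold.

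Mature pollen, which was compared with the stamens that contain it, had little of either transcript. PORB gave 45.5, 39.3 and 19.4 and RCA 21.02, 34.1 and 39.8, with 1 array of each gene under the floor of 22.6. The coefficients of variation in pollen were 39.3% for PORB and 30.5% for RCA, against medians over groups of 5.92% and 5.59%. The SEs below are shared over all groups and do not show this wider spread. RCA was 10.02-fold lower than in stage 12 stamens and 42.5-fold lower than in stage 15 stamens, log2 changes of -3.33 and -5.41 ± 0.11 (SE; limma adjusted p = 1.73e-35 and 4.18e-46). PORB changed by -1.33 ± 0.11 against stage 12 stamens (SE; limma adjusted p = 7.66e-17). That call was lost under quantile normalization (-0.77) and under scaling to the 75th percentile (-0.66), which raise the median of all pollen signals by 0.38 and 0.78 on the log2 scale. Against stage 15 stamens PORB was at -0.94 and not called. Nearly as many probe sets were called as not, 44.3% and 49.3%.

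Other genes of the pathway were also low in pollen, with exceptions. Against stage 15 stamens 8 of the 10 other chlorophyll synthesis genes were lower, where 30.5% of all tested probe sets were called lower and 18.8% higher. GSA1 was at -0.85 and not called, and HEMA2, an isoform of the glutamyl-tRNA reductase that begins both haem and chlorophyll synthesis, was higher at 813 against 114, a log2 change of 2.69. AT1G44000 of the breakdown list was also higher, at 1209 against 231. SBPASE, PRK, AT3G47650, rbcL and AT1G56190 were lower, by 4.26, 2.96, 1.67, 1.60 and 1.22 on the log2 scale as decreases, and the other 3 carbon fixation genes were not called.

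Genes whose mean log2 signal most resembled each gene over the 22 groups were listed by Pearson's r among 9707 genes, as a description, since the groups share stages, organs and scaling. For PORB these were AT2G34620 at 0.972, AT3G13120 at 0.968, AT4G01310 at 0.961, AT2G42220 at 0.958 and AT5G47190 at 0.955. In stage 12 and stage 15 sepals AT2G34620 gave 127 and 17.5, in petals 200.4 and 53.2, and in pedicels 437. For RCA they were AOR, an alkenal/one oxidoreductase, at 0.993, ATPC1, the gamma subunit of the chloroplast ATP synthase, at 0.989, PSAE-1 at 0.985 and PSBW at 0.984, both photosystem subunits, and AT5G58330, an NADP-dependent malate dehydrogenase, at 0.983. In stamens AOR went from 90.7 to 375 and in sepals from 1159 to 883.

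PORB and RCA themselves were less alike, with r = 0.605 and rho = 0.350 over the same 22 groups, and r = 0.372 without pollen. RCA ranked 2965th among the genes most like PORB, and PORB ranked 2185th among those most like RCA. Of the 5 genes named for PORB, 2 were also in its first 5 by Spearman's rho and 3 in its first 5 without pollen; for RCA the counts were 1 and 2.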

How the data were processed

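The deposited values were read from the series' value table, 1 column per array. They are intensities on a linear scale (MAS5 signal), which the authors scaled per array, per the submitters' processing notes and the values, whose means with 2% trimmed from each end were 100.01 to 100.02; the tool's version is not given in the sources used here. Groups were taken from the labels of the 66 samples, and no 2 arrays held identical values.

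From these signals log2(signal + 11.3) was computed, where 11.3 is 0.5 times the floor of 22.6, the 40th percentile of all values. Of 22810 probe sets, 64 controls and 5100 that exceeded the floor on all arrays of no group were left out, and 17646 were tested. limma 3.58.1 in R 4.3.3 fitted 1 mean per group over 66 arrays (lmFit, eBayes with trend; 44 residual degrees of freedom, 10.6 prior), with 38 contrasts and Benjamini-Hochberg adjustment over all tested probe sets. A call needed an adjusted p below 0.05 and at least 2-fold. The test was checked on simulated data. The number of arrays limits the precision.

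Probe sets were named through the platform's annotation, updated by RefSeq: 13513 had 1 gene, 503 several and 8730 none. PORB and RCA and the gene lists were chosen with earlier results of these data known. The text names PORB, RCA, the members of the chlorophyll synthesis, chlorophyll breakdown and carbon fixation lists with a single-gene probe set, at most 4 called genes of each other list, ranked by size of change, and the 5 genes most like each. Lists of light and chloroplast regulators (2 of 22 genes readable) and of petal and stamen identity markers (2 of 4) were also read. Replicate letters did not pair the samples: over 88 same-letter pairs in 31 comparisons, deviations from group means correlated at -0.14 to 0.12, with a median of 0.0038. Alternatives were other pseudocounts, no filter, 2 other scalings, fits of only the groups compared, robust eBayes, a replicate block and leaving out each array. Sequences and coordinates were not used here.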

Additional observations from a re-analysis of the deposited data

Results flagged for a closer look

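The change from stage 12 to stage 15 was called different between organs in 10 of the 12 pairs tested for the 2 genes. The call combined limma's test of the difference itself with the 2-fold limit. The pairs not called were RCA in sepals against petals, at -0.55, and in petals against carpels, at -0.51. Their limma adjusted p was 1.59e-03 and 2.66e-03, so they missed only the 2-fold limit. For PORB the log2 difference in stage change was -1.07 for sepals against petals, -2.4181 for sepals against stamens, -3.6184 for sepals against carpels, -1.3481 for petals against stamens, -2.5484 for petals against carpels and -1.2003 for stamens against carpels (SE 0.15 each). For RCA it was -2.3337 for sepals against stamens, -1.0534 for sepals against carpels, -1.788 for petals against stamens and 1.2803 for stamens against carpels (SE 0.15 each).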

How the results depend on the processing

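The 76 differences for PORB and RCA were recomputed under 1136 alternatives. Of these 1120 stayed on the same side of the call threshold, and 69 of the differences did so throughout. No called value reversed. Signs did turn among small differences that were not called, as for RCA in petals over stamens at stage 15 (-0.025 to 0.38). PORB in sepals against petals in stage change lost its call with a pseudocount equal to the floor (-0.91) and under quantile normalization (-0.79), and ranged from -1.13 to -1.01 with arrays left out in turn. RCA in sepals against carpels in stage change lost it under quantile normalization (-0.91) and ranged from -1.17 to -0.90. PORB in pollen against stage 12 stamens lost it under quantile normalization (-0.77) and 75th-percentile scaling (-0.66). PORB in pollen against stage 15 stamens gained a call without a pseudocount (-1.18) and ranged from -1.11 to -0.67; it was called without the first pollen array (-1.11), the second (-1.03) or the first stage 15 stamen array (-1.02). PORB in petals over stamens at stage 15 gained one without a pseudocount (1.03) and ranged from 0.84 to 1.02, called without the third stamen array. RCA in sepals over stamens at stage 15 gained one under quantile normalization (1.03). RCA in petals over pedicels ranged from -1.13 to -0.88. With a replicate block no call changed and the largest shift was 0.079: PORB in sepals stayed at -2.81 and RCA in stamens at 2.08.

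Counts of probe sets called moved by over 1.5 times in 8 of 38 comparisons without a pseudocount: from 984 to 1506 in ap1-15, 1134 to 1814 in ap2-6, 1729 to 2601 in lfy-12, 123 to 193 in clv3-7 (78 with a pseudocount equal to the floor), 802 to 1329 in carpels between stages, 555 to 972 in flowers from stage 9 to 10/11, 2638 to 3977 in petals over carpels at stage 12 and 1938 to 3059 in petals over stamens at stage 15. The counts of chlorophyll synthesis genes called in petals ran from 5 to 7. Quantile normalization moved the median signal by -0.14 (ap1-15) to 0.12 (stage 15 petals) outside pollen on the log2 scale, and 75th-percentile scaling by -0.10 to 0.08. The causes were not tested. Signals near the floor, as in pollen, limit what can be said of either gene there.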
